A study of Homo sapiens with 6 samples.

Results

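Expression of hemidesmosome and laminin-332 genes was compared between RB-proficient and RB-deficient cells on single-channel microarrays. The genes were the 9 named for this purpose, ITGA6, ITGB4, ITGA3, LAMA3, LAMB3, COL17A1, DST, PLEC and CD151, and each was read by its probe set with exactly 1 gene symbol. Of the 9, 7 had such a probe set, 1 each, among 18417 genes measured in the same way. Expression of LAMA3 and COL17A1 was not analysed here.

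All arrays came from MCF10A, an established, non-tumorigenic line of human mammary epithelium, here the derivative called MCF10A/ErbB2 after the receptor tyrosine kinase ErbB2. Both groups carried that name, and both grew for 7 days within reconstituted basement membrane as 3-D cultures, with which the cells were lysed. The labels gave 3 arrays as RB-proficient and 3 as RB-deficient, RB being the retinoblastoma protein. The sample titles tagged the groups miNS and miRB without spelling the tags out, and the labels did not say how ErbB2 was introduced, whether a group was 1 clone, or whether its arrays came from separate cultures. The p-values therefore measure the spread between these arrays, which may be technical, and the small number of arrays limits the precision.

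Hemidesmosomes are the plaques that fasten the basal surface of an epithelial cell to its basement membrane. In them integrin alpha6beta4, the product of ITGA6 and ITGB4, binds laminin-332 outside the cell, and the plakins encoded by PLEC and DST tie the integrin and the transmembrane collagen of COL17A1 to keratin filaments inside it. Laminin-332 contains the chains encoded by LAMA3 and LAMB3, and it is also bound by integrin alpha3beta1, whose alpha chain is encoded by ITGA3. CD151 is a tetraspanin that associates with both of these laminin-binding integrins. In mammary epithelium, alpha6beta4 and its laminin ligands are known for anchoring cells and for setting the basal side of polarised 3-D structures.

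Values are log2 intensities, brought to the same median on every array and with a floor of 1, which is 0 on the log2 scale. A negative difference means a lower mean in the RB-deficient group (n = 3 arrays each), and adjusted p-values are from limma with Benjamini-Hochberg adjustment over all 18417 genes. Probe sets differ in how strongly they respond, so levels are compared between arrays for 1 gene and not between genes. Detection above background was not analysed here.

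Several facts about the whole series bear on the values. RB1, which encodes RB, averaged 6.81 ± 0.95 (SD) over RB-proficient arrays against 4.86 ± 1.31 (SD) over those labelled RB-deficient (limma adjusted p 0.302). RB-proficient arrays 1 to 3 read 7.01, 5.77 and 7.65, and RB-deficient arrays 1 to 3 read 3.45, 5.09 and 6.04. The groups overlapped, through RB-deficient 3 alone, so the labels were not checked by RB1. ERBB2 averaged 5.25 ± 0.33 (SD) and 3.95 ± 0.26 (SD), with a limma adjusted p of 0.288. It was 2.47-fold lower in the RB-deficient group, and the groups did not overlap. The median SD of a gene was 0.84 among the arrays labelled RB-deficient and 0.40 among the RB-proficient ones. The array labelled RB-deficient 3 correlated with the RB-proficient arrays at an r of 0.83 to 0.88 across genes. RB-deficient 1 and 2 correlated with the RB-proficient arrays at 0.68 to 0.75. With RB-deficient 1 and 2, RB-deficient 3 correlated at 0.71 to 0.75, so it was closer to the RB-proficient arrays than to its own group. The median difference over all genes was −0.21, or −0.09 with quantile normalization and −0.08 with each array centred on its genes. A difference below 0 was found for 58.6% of all genes. Of the mammary epithelial markers EPCAM, KRT18, KRT8, KRT5, KRT14, CDH1 and CDH3, 6 of 7 had a lower RB-deficient mean, with a list mean of 8.26 to 9.05 in RB-proficient arrays and 6.79 to 7.50 in the others. EPCAM differed by 0.24, and 0 of the 7 reached the floor in any array. Reference genes behaved likewise: ACTB (−1.92) and GAPDH (−1.23) each had all 3 RB-deficient values under all 3 RB-proficient ones. Marker lists of fibroblasts, endothelium and leukocytes had medians of −0.12, −0.41 and 0.03, and list means that overlapped between the groups for fibroblasts and leukocytes (4.26 to 4.76 against 3.93 to 4.52, and 4.64 to 5.0 against 4.59 to 5.20). For endothelium they were 4.38 to 4.87 against 4.21 to 4.36, and among these 3 lists only COL3A1 reached the floor in any array.

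The integrin chains and their tetraspanin partner had unequal differences. ITGB4 was 4.90-fold lower, CD151 4.61-fold lower and ITGA3 2.44-fold lower in the arrays labelled RB-deficient, and for each of these 3 genes the groups did not overlap. LAMB3 was 2.50-fold lower with overlapping groups, whereas ITGA6, DST and PLEC differed by less than the spread between arrays. By limma's test, 0 of the 7 genes passed an adjusted p of 0.05, against 0.00543% of all genes, and 3 of 7 were lower at an unadjusted p under 0.05, against 10.8% of all genes. Groups that did not overlap, with lower values in RB-deficient arrays, were found for 3 of 7 genes and for 15.3% of all genes, and the median difference of the 7 genes was −1.29. In bulk samples such as these, fewer cells of a type and less RNA per cell cannot be told apart. The part of the lower epithelial markers and reference genes in these differences was not tested.

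**Figure D1:**
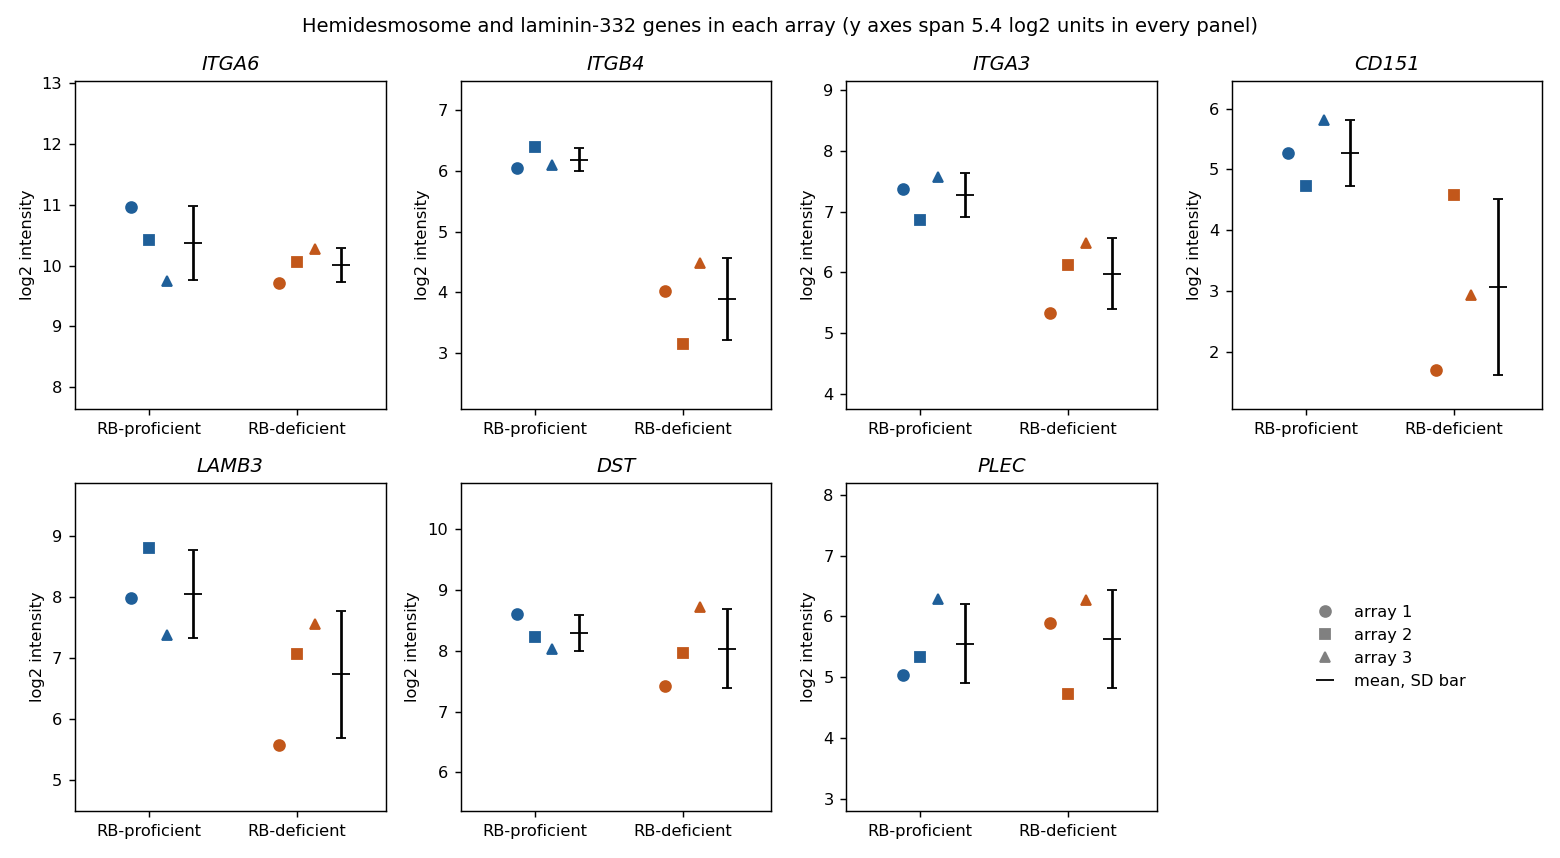
Log2 intensity of the 7 measured genes in each array, with RB-proficient arrays in blue, RB-deficient arrays in orange, a marker shape for the array number within its group, and the mean with an SD bar in black. The groups are apart for ITGB4, ITGA3 and CD151 and overlap for ITGA6, LAMB3, DST and PLEC.

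ITGB4 encodes the beta4 chain, whose long cytoplasmic tail recruits plectin and which pairs with alpha6 alone. RB-proficient arrays 1, 2 and 3 read 6.05, 6.40 and 6.09, whereas arrays 1, 2 and 3 labelled RB-deficient read 4.02, 3.16 and 4.49. The RB-proficient values were close together, and the lowest of them lay 1.56 above the highest value of the other group. ITGB4 thus differed by −2.29 (SE 0.52, 95% interval −3.47 to −1.12; limma adjusted p 0.206). Across all genes, 3.06% had a difference as low or lower. ITGB4 passed with a floor of 16 (difference −2.01, limma adjusted p 0.0489), where 0.261% of all genes were called lower. It also passed with an offset of 16 added before log2 (−1.50, limma adjusted p 0.0474), where 1.01% were. Both differences were smaller in size than −2.29. RB-deficient 2, at 3.16, lay below 4 on the log2 scale, the level of that floor, so the floor narrowed the spread of its group. Over 18 alternative settings the ITGB4 difference ran from −2.59 to −1.50. The adjusted p of ITGB4 by limma ran from 0.0474 to 0.709, and the other 16 settings gave no call.

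ITGA6 encodes the alpha6 chain, which pairs with beta4 in hemidesmosomes and with beta1 elsewhere. The RB-proficient readings were 10.96, 10.42 and 9.74, against 9.71, 10.07 and 10.27 for RB-deficient arrays 1 to 3. All 3 RB-deficient values lay below the top 2 RB-proficient ones, and the lowest values of the groups were almost equal, so the groups overlapped. The difference was −0.36 (SE 0.52, 95% interval −1.52 to 0.80, adjusted p 0.775 by limma), which does not show that the groups were alike. ITGA6 was the 1 gene of the 7 with a smaller SD among the arrays labelled RB-deficient (0.28) than among the RB-proficient ones (0.61).

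ITGA3 encodes the alpha3 chain of integrin alpha3beta1, which binds laminin-332 in focal contacts rather than in hemidesmosomes. It read 7.38, 6.87 and 7.57 with RB and 5.33, 6.13 and 6.48 in the RB-deficient group. Each RB-deficient value was below each RB-proficient value, by at least 0.38. The difference of −1.29 (SE 0.52, 95% interval −2.46 to −0.12) had an adjusted p of 0.323 by limma. ITGA3 differed by −0.79 without the arrays labelled RB-deficient 1 and 2, where RB-deficient 3 stood alone in its group.

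CD151, the tetraspanin partner of alpha3beta1 and alpha6beta4, read 5.26, 4.73 and 5.82 in the RB-proficient group against 1.69, 4.57 and 2.93 in the RB-deficient group. RB-deficient 1 and 3 were far below the RB-proficient arrays, while RB-deficient 2 lay only 0.15 below the lowest of them. The difference of −2.21 (SE 0.73, 95% interval −3.85 to −0.56) had an adjusted p of 0.267 by limma. Its SD was 1.45 among the arrays labelled RB-deficient, the largest of the 7 genes, and 0.54 among the RB-proficient ones. The size depended on how low intensities were handled, since 2 of the 3 RB-deficient values lay below 4 on the log2 scale, the level of the floor of 16. It was −1.08 with that floor and −1.07 with the offset of 16, with no call (adjusted p 0.262 and 0.158).

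LAMB3 encodes the beta3 chain of laminin-332. It read 7.99, 8.81 and 7.37 in the RB-proficient group against 5.56, 7.07 and 7.56 in the RB-deficient group. RB-deficient 1 was the lowest by 1.51, and RB-deficient 3 lay above RB-proficient 3. The difference was −1.32 (SE 0.66, 95% interval −2.80 to 0.15, adjusted p 0.404 by limma). It was −0.74 without the array labelled RB-deficient 1 and −0.49 without RB-deficient 1 and 2. At an unadjusted p of 0.0725 the gene did not reach 0.05.

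Promoters of the laminin chains are shown because LAMB3 is the measured chain of laminin-332 and both chains held the letters of an AP-1 site, bound by the FOS and JUN factors. RefSeq promoter windows (GRCh38.p14) were analysed for 5 of the 9 genes, COL17A1, DST, ITGA6, LAMA3 and LAMB3, with 10 annotated starts. The 250 bases before each start were searched on both strands. Windows of ITGB4, ITGA3, PLEC and CD151 were not searched. The AP-1 letters were TGACTCA and TGAGTCA, which are each other's reverse complement. They occurred in 2 of the 10 windows, 1 of LAMB3 and 1 of LAMA3, and in 4.20% of 35116 windows of all genes. The letters TTTCCCGC, TTTGGCGC, TTTCGCGC and TTTGCCGC, forms of the site bound by E2F factors, occurred in 0 of the 10 windows and in 2.79% of all windows, which says only that these letters are not in these windows. The LAMB3 window lies at chr1:209651375-209651624 on the minus strand, before the third of 3 annotated starts and inside the span of transcripts from the other 2. The LAMA3 window lies at chr18:23872770-23873019 on the plus strand. Both are printed 5′ to 3′ with the AP-1 letters in capitals.
LAMB3: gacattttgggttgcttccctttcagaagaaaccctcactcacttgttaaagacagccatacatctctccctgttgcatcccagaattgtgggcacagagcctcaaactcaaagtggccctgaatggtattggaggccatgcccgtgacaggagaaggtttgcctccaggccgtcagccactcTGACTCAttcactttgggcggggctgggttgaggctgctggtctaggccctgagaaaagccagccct
LAMA3: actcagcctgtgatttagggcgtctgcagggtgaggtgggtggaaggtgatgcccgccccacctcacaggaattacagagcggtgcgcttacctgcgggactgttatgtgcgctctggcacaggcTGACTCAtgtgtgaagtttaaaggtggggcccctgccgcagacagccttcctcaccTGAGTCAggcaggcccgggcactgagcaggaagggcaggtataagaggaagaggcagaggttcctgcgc
In LAMB3 the letters began 67 bases before the start, and in LAMA3 they began 125 and 69 bases before it. A match of letters is a description of the sequence and does not show binding in these cells.

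The plakins PLEC and DST showed no difference beyond the spread between arrays. PLEC encodes plectin, which links beta4 to keratin filaments, and it read 5.04, 5.33 and 6.28 in the RB-proficient group against 5.89, 4.72 and 6.27 in the RB-deficient group. The groups covered almost the same range, with a difference of 0.08 (SE 0.60, 95% interval −1.26 to 1.41, adjusted p 0.964 by limma). DST encodes dystonin, whose epithelial form is the hemidesmosomal protein BP230, and read 8.61, 8.23 and 8.04 against 7.42, 7.97 and 8.72. RB-deficient 3 gave the highest DST value of all 6 arrays and RB-deficient 1 the lowest, with a difference of −0.26 (SE 0.52, 95% interval −1.44 to 0.92, adjusted p 0.842 by limma). DST has transcripts of neural and muscle forms too, and 1 probe set does not tell them apart. Neither direction was stable: PLEC ran from −0.25 to 0.72 and DST from −0.60 to 0.42 over 18 settings.

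**Figure D2:**
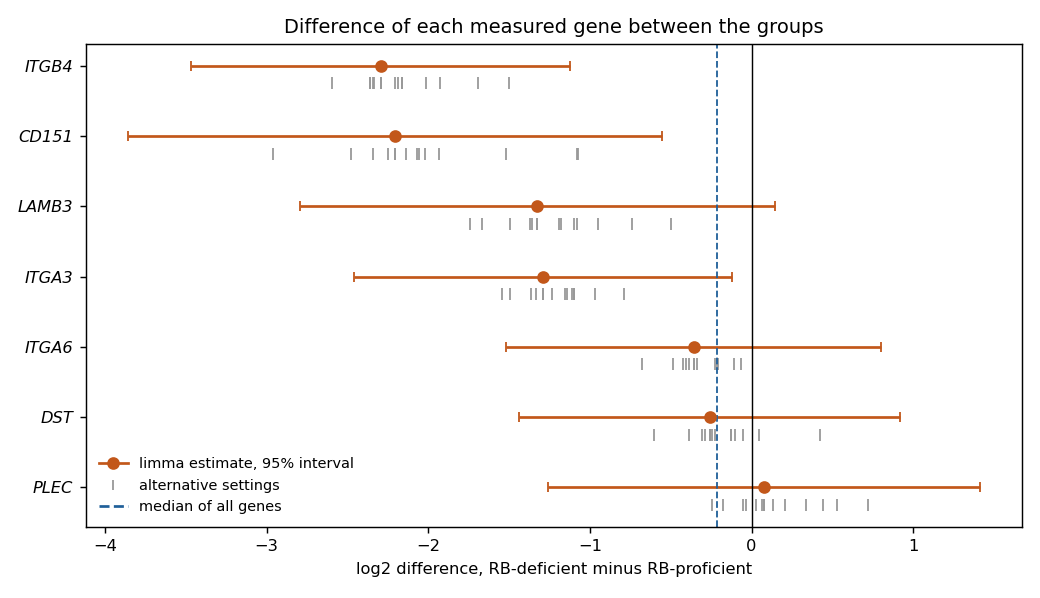
Log2 difference between the groups for each measured gene, as limma's estimate with its 95% interval (orange), the same difference under the alternative settings (grey ticks) and the median of all genes (dashed line, −0.21). The intervals of ITGB4, CD151 and ITGA3 lie below 0 before adjustment, those of the other 4 genes span 0, and the ticks of PLEC and DST fall on both sides of 0.

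The 7 genes also differed in which RB-deficient array was lowest. Against the RB-proficient mean, the median shift of the 7 genes was −1.94 in the array labelled RB-deficient 1, −0.83 in RB-deficient 2 and −0.49 in RB-deficient 3, while the median of all genes was −0.14, −0.37 and −0.14. ITGB4 was lower by more than 1.5 in each of the 3 arrays, at −2.17, −3.02 and −1.69. RB-deficient 1 was the lowest array for ITGA6, ITGA3, LAMB3, DST and CD151, and RB-deficient 2 for ITGB4 and PLEC. RB-deficient 1 also had the lowest median before scaling (21.37) and the largest share of all genes at the floor, 4.71%. That share was 1.62% in RB-deficient 2 and 0.68% in RB-deficient 3, and 0.41%, 0.33% and 0.68% in RB-proficient arrays 1 to 3. The lowest value of the 7 genes, 1.69 for CD151 in RB-deficient 1, was above the floor. The part of these array traits in the order was not tested. Without RB-deficient 1 and 2, 3 of the 7 genes did not overlap and were lower, where 37.6% of all genes were. That count was 5 of 7 without RB-proficient 3 and 5 of 7 without RB-deficient 3, against 17.9% and 26.3% of all genes.

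Partner genes were then compared within each array, as the log2 ratio of 1 gene to the other. The ratio itself has no absolute meaning, because the probe sets differ, but the difference of the ratio between groups compares the 2 genes free of array scaling. Of 11 pairs fixed from known complexes, 6 had both genes measured. Several of these pairs share a gene, such as ITGA6 or ITGB4, so their ratios are not independent of each other. With 3 arrays against 3, a two-sided exact permutation test cannot go below 0.10, which is 0.20 after Benjamini-Hochberg adjustment over the 6 pairs, so no pair could pass.

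For the 2 chains of alpha6beta4, the ITGB4 to ITGA6 ratio was −4.91, −4.02 and −3.64 with RB against −5.69, −6.91 and −5.78 in the RB-deficient group. All 3 RB-deficient ratios were below all RB-proficient ones, a difference of −1.94 (exact p 0.10). ITGA3 relative to ITGA6, the alpha chains of the 2 laminin-332 receptors, differed by −0.93 without overlap (exact p 0.10), and its closest values were 0.20 apart. Without RB-proficient 3 the difference was −0.47 (exact p 0.20). PLEC relative to ITGB4, its binding partner in the plaque, was −1.01, −1.07 and 0.18 with RB and 1.87, 1.56 and 1.78 in the others. That ratio differed by 2.37 on average, with an SD of 0.16 among the RB-deficient arrays and an exact p of 0.10. PLEC itself differed by 0.08 and ITGB4 by −2.29, so the ratio of PLEC to ITGB4 largely repeats the ITGB4 difference. With the offset of 16 the ratio of PLEC to ITGB4 differed by 1.57, and that of ITGB4 to ITGA6 by −1.15.

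The 3 other ratios overlapped between the groups. CD151 relative to ITGA6 differed by −1.85 (exact p 0.30) and CD151 relative to ITGA3 by −0.92 (exact p 0.40), and in both the array labelled RB-deficient 2 gave the highest value or lay among the RB-proficient ones. With the floor of 16, the ratio of CD151 to ITGA3 turned to 0.21 and that of CD151 to ITGA6 was −0.72. PLEC relative to DST, the 2 plakins of the plaque, differed by 0.34 (exact p 0.70).

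**Figure D3:**
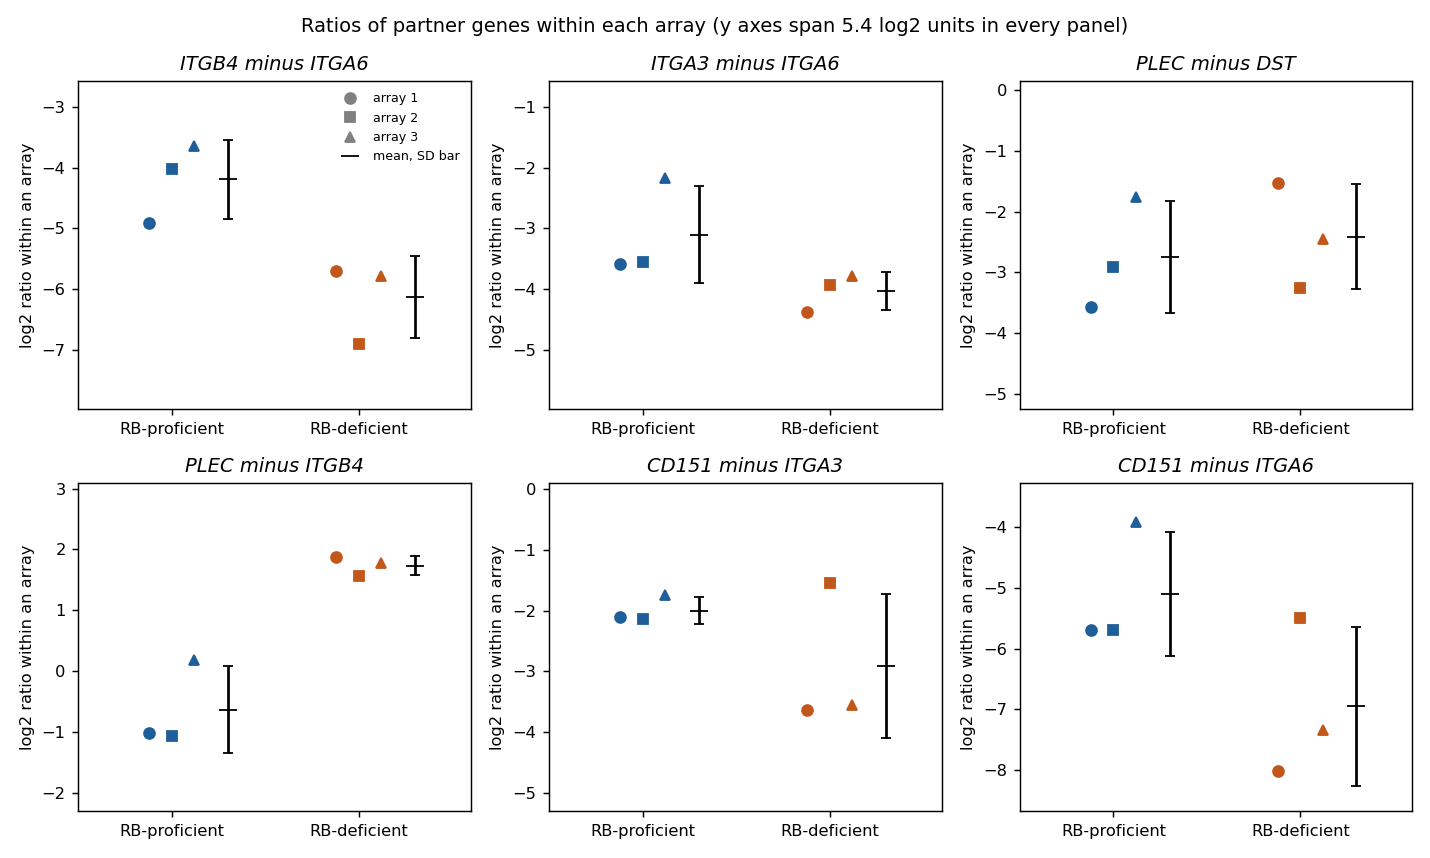
Log2 ratio of partner genes within each array for the 6 measured pairs, with RB-proficient arrays in blue, RB-deficient arrays in orange, and the mean with an SD bar in black. Only the difference between groups can be read, and pairs that share a gene are not independent. The groups are apart for ITGB4 to ITGA6, ITGA3 to ITGA6 and PLEC to ITGB4, and overlap for the other 3 pairs.

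Genes around the hemidesmosome were described from 8 lists of 108 symbols, of which 98 were measured. Of the 98, 53 had a lower RB-deficient mean, against 58.6% of all genes. The counts of lower genes in each list stand beside that same share. By limma's test 0 of the 98 passed an adjusted p of 0.05, and 14 of 98 had an unadjusted p under 0.05, against 13.7% of all genes. Groups without overlap were found for 20 of the 98 genes with lower values in RB-deficient arrays (20.4%, against 15.3% of all genes) and for 7 with higher values (7.14%, against 7.12%). The medians of 5 lists took both signs over the 18 settings: laminin-332 partners (−0.71 to 0.62), other laminin chains (−0.26 to 0.38), other basement membrane genes (−0.17 to 0.68), other integrin chains (−0.40 to 0.21) and other tetraspanins (−0.49 to 0.33). Of the 98 genes, limma called 3 with the offset of 16, 1 with trend and robust estimation and 0 with the floor of 16. Over all 18417 genes those settings called 193, 61 and 58.

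Matrix genes near laminin-332 had no common direction. Of 6 measured partners and anchoring-fibril genes, 3 were lower and 3 higher, and 0 had groups without overlap. COL7A1, the collagen of anchoring fibrils, differed by 0.62 (SE 0.54), NID1, which joins laminin to collagen IV networks, by −1.66 (SE 0.93), LOXL2, a collagen-crosslinking oxidase, by −1.44 (SE 0.89), and MMP14, a membrane protease that can cleave laminin-332, by −1.15 (SE 0.80). NID1 and LOXL2 reached the floor in at least 1 array, and with the floor of 16 they differed by −0.13 and −0.02. MMP14 differed by −0.59 with the floor of 16. NID1 was −0.62 without RB-proficient 2, LOXL2 −0.37 without RB-deficient 1 and MMP14 −0.26 without RB-deficient 3. COL7A1 was 1.07 without RB-deficient 1 and 0.39 without RB-deficient 3.

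Among the other laminin chains, 4 of 10 were lower, and the list median was 0.20. LAMB1, the beta chain of laminin-111 and laminin-511, averaged 8.29 ± 0.35 (SD) and 7.16 ± 0.71 (SD) without overlap, a difference of −1.13 (SE 0.54). LAMB2 differed by −1.16 (SE 0.62) and LAMA2 was 2.14-fold higher (SE 0.60 on the log2 scale), both with overlap. LAMB1 was −0.37 without RB-deficient 1 and 2, and LAMB2 −0.71 without RB-deficient 1. LAMA2 differed by 0.69 without RB-proficient 3. For other basement membrane genes, 7 of 17 were lower and the list median was 0.09. FRAS1, which encodes an epithelial basement membrane protein, differed by −2.51 (5.70-fold; SE 0.65, adjusted p 0.211 by limma), from 3.70 ± 1.13 (SD) to 1.18 ± 0.50 (SD). These are low intensities, and FRAS1 differed by −0.22 with the floor of 16. HSPG2, the heparan sulfate proteoglycan perlecan, differed by −1.18 (SE 0.57) without overlap, or −0.67 without RB-proficient 1, and SPARC by 0.94 (SE 0.58) with overlap.

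Among 22 other integrin chains, 11 were lower and 11 higher, with a median of −0.15. ITGB1, the beta1 partner of alpha3 and alpha6, averaged 8.70 ± 0.22 (SD) and 7.85 ± 0.60 (SD), a difference of −0.85 (SE 0.51) without overlap, which was −0.52 without RB-deficient 2. ITGB6, the beta chain of the epithelial integrin alphavbeta6, differed by −1.60 (SE 0.74) with overlap, −0.87 without RB-deficient 1 and −0.05 without RB-deficient 1 and 2. ITGA8, an alpha chain that pairs with beta1, was higher, from 3.72 ± 0.25 (SD) to 5.93 ± 0.39 (SD). That was a 4.65-fold difference with an adjusted p of 0.206 by limma. On the log2 scale ITGA8 differed by 2.22, or 1.41 with the offset of 16. ITGAD, a leukocyte chain, differed by 1.07 (SE 0.49). For 5 of these 22 genes the groups did not overlap with higher values (7.12% of all genes), and for 1 with lower values (15.3% of all genes).

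Focal adhesion proteins, which connect integrins to actin, were lower for 13 of 20 genes (58.6% of all genes), with a median of −0.87. Of the 20, 8 did not overlap and were lower, against 15.3% of all genes. FERMT1, the epithelial kindlin that activates integrins, was 4.40-fold lower (log2 SE 0.60). PARVA, a parvin of the ILK complex, was 3.19-fold lower (SE 0.49), and ACTN4, an alpha-actinin, was 3.56-fold lower (SE 0.55). Their adjusted p-values by limma were 0.225, 0.231 and 0.235, and PARVA (0.0474) and ACTN4 (0.0482) passed with the offset of 16. The actin gene ACTB, to which these proteins connect, was itself lower in the same arrays (adjusted p 0.213 by limma, and 0.0393 with that offset).

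The other plakins were lower for 4 of 5 genes, all 4 without overlap (15.3% of all genes), with a median of −1.01. That median was −0.69 without RB-deficient 1 and −0.39 without RB-deficient 1 and 2. MACF1, a spectraplakin related to DST, differed by −1.47 (SE 0.58), DSP, the desmosomal desmoplakin, by −1.07 (SE 0.52) and PPL, periplakin, by −1.01 (SE 0.53). Whether these differ from the hemidesmosomal PLEC and DST was not tested. Of 15 other tetraspanins, 8 were lower and 7 higher, with a median of −0.44 that turned to 0.28 and 0.33 with the dimmest 25% and 50% of genes left out. CD81 was 7.33-fold lower (log2 SE 0.54), from 7.04 ± 0.61 (SD) to 4.16 ± 0.47 (SD), with an adjusted p of 0.206 by limma. It passed with trend and robust estimation (0.0356) and with the offset of 16 (0.0278). TSPAN14 was 5.64-fold lower (SE 0.66) and TSPAN1 2.47-fold lower (SE 0.70), both without overlap. For TSPAN1 the closest values were 7.60 in RB-deficient 3 and 7.62 in RB-proficient 3. TSPAN14 differed by −2.50, or −1.56 with the offset of 16, and TSPAN1 by −1.30, or −0.53 without RB-deficient 1.

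Of the basal keratins, the filaments that hemidesmosomes anchor, KRT5, KRT14 and KRT15 were measured, and all 3 were lower. KRT5 averaged 10.19 ± 1.27 (SD) and 7.79 ± 1.63 (SD) with overlap, a difference of −2.40 (SE 0.90). KRT15 differed by −1.07 (SE 0.47) without overlap, and KRT14 by −0.71 (SE 0.51) with overlap, or −0.39 without RB-deficient 2. KRT17, KRT6A, KRT6B and TP63 had no probe set with exactly 1 gene symbol and were not analysed here.

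**Figure D4:**
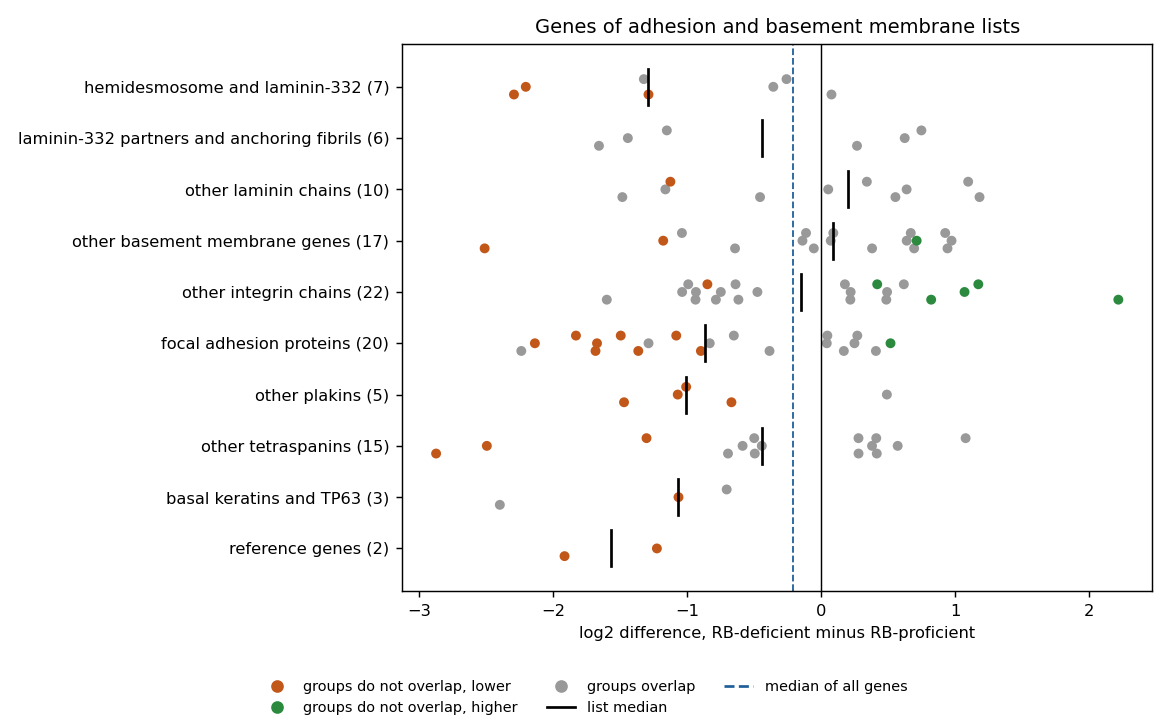
Log2 difference of each measured gene in the hemidesmosome and laminin-332 set, the 8 adhesion and basement membrane lists and the 2 reference genes, with the number of genes in parentheses, list medians as black bars and the median of all genes as a dashed line. Orange points are genes whose groups do not overlap with lower values in RB-deficient arrays, green points those with higher values, and grey points those that overlap; focal adhesion proteins and other plakins hold 8 and 4 orange points.

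The mean of the 7 genes, each centred over the arrays, was 0.59, 0.52 and 0.53 with RB against −1.08, −0.50 and −0.07 for RB-deficient arrays 1 to 3. Among 9202 other genes of above-median intensity, those that followed this profile most closely over the 6 arrays were CREBBP, C3orf38, UBAP1, DCTN5 and SPRTN, with Pearson's r from 0.994 to 0.999. Such values describe 6 arrays that share the 2 groups and the order of the RB-deficient arrays. The differences of these 5 genes ran from −1.60 to −1.15, and their adjusted p-values by limma from 0.267 to 0.356.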

How the data were processed

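The file held 1 intensity per probe set and array on a linear scale, as deposited by the authors. Per the submitters' processing notes, Affymetrix Expression Console 1.1 was used; how probe sets were summarised and normalized: not given in the sources used here. From these values arrays were brought to the same median over 33297 probe sets, floored at 1 and converted to log2. Names came from the platform annotation, and 19460 probe sets had 1 symbol. Groups were compared with limma 3.58.1 (R 4.3.3, lmFit and eBayes, two-sided, no covariates), with adjustment over all 18417 genes and a threshold of 0.05. The fit was tested on simulated data with an equal SD in both groups, which these data do not have. Deviations from the group means were not shared by arrays of the same number (r of −0.12, 0.07 and −0.11 across genes), so no pairing was used, and no 2 arrays held identical values. The genes and lists were chosen with earlier results of these data known. All 7 measured genes are named, with up to 3 genes per list of smallest p, and ITGB1, FERMT1, COL7A1, ERBB2, RB1, ACTB and GAPDH. TP63 was also chosen for naming but was not analysed. LAMA3 and COL17A1 were not analysed, nor were 5 of the 11 partner pairs.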

Additional observations from a re-analysis of the deposited data

How the results depend on the processing

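The 18 alternatives were quantile normalization, centring, no scaling, leaving out the dimmest 25% or 50% of genes, averaging probe sets, trend and robust estimation, array weights, a floor of 16, an offset of 16, the replicate block, each array left out, and RB-deficient 1 and 2 left out together. The count of the 7 genes called was 1 with the floor of 16 and 1 with the offset of 16 (ITGB4 in each), and 0 in the other 16. Of the genes in the surrounding lists, 1 was called with trend and robust estimation and 3 with the offset. Over all genes limma called 1, against 61 with trend and robust estimation, 58 with the floor and 193 with the offset. The median difference of the 7 genes was −1.54 to −0.74 with single arrays left out and −0.49 without RB-deficient 1 and 2. The count without overlap and lower, an alternative chosen after seeing the data, was 3 to 5 with single arrays left out.

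ITGB4, ITGA3, LAMB3, CD151 and ITGA6 stayed lower in all settings in which they were tested. ITGA6, however, was −0.064 without RB-proficient 1, where the median of all genes was −0.21. PLEC ran from −0.25 to 0.53 and DST from −0.60 to 0.049 with single arrays left out, and DST was 0.42 and LOXL2 0.16 without RB-deficient 1 and 2. PLEC relative to DST ran from −0.10 to 0.83 with single arrays left out. CD151 relative to ITGA3 was 0.21 with the floor and 0.025 with the offset. With the replicate block the median of the 7 genes was −1.29, 0 were called and no call changed. The causes of these changes were not tested. Detection above background is unknown, so sizes that rest on low intensities are the least certain. Among them are those for CD151, FRAS1, NID1, LOXL2, MMP14 and ITGA8.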
